A study of Mus musculus with 40 samples.

Results

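IL-1β (interleukin 1β, 15 ng/ml for 24 h) was compared with no ligand in cardiac fibroblasts in which TAK1 had been deleted, to determine which part of the IL-1β response remained without this kinase. The 4 IL-1β libraries and the 4 libraries without ligand (CTRL) that carried Cre recombinase (iCre) were taken by their labels, which gave 8 of the 40 libraries of the series. Within this comparison, libraries were paired by replicate number, and 25210 of the 55414 deposited genes, those with at least 10 counts over the 40 libraries, were tested. The cells came from hearts of C57BL/6J TAK1 fl/fl mice, which carry loxP sites around exon 2 of Map3k7, the gene for TAK1. At passage 1 they were transduced with an adenovirus that expresses iCre, or in other cultures LacZ, from the CMV promoter, which is active in any transduced cell. All cultures were serum-starved, and both the CTRL and the IL-1β cells of the iCre arm had received the Cre virus. The 8 LacZ libraries with and without IL-1β, in which TAK1 is intact, served to show where the response differed. The study describes the 4 libraries of each group as biological replicates from male mice. The labels do not name the animal or culture behind a library, so the p-values refer to these samples only. In the paired fits of 8 libraries they rest mostly on a spread estimated over all genes, not on each gene's own samples.

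IL-1β binds the receptor IL1R1 with its partner IL1RAP, and the adaptor MYD88 and IRAK kinases then recruit TRAF6. In the usual account of this pathway, TAK1, in a complex with its activating partner TAB1 and the ubiquitin-binding proteins TAB2 and TAB3, then activates the IKK complex and the p38 and JNK kinases. IKK releases NF-κB from its inhibitors, and p38 and JNK act on AP-1 factors and on the stability of cytokine mRNAs. In fibroblasts, IL-1β is known for inducing chemokines, acute-phase proteins, matrix metalloproteinases and inducible nitric oxide synthase.

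Total counts lay between 25360947 and 45258832 in the iCre CTRL and between 36573605 and 55947432 in the iCre IL-1β libraries, within the range of 25360947 to 66160732 of all 40 libraries. Levels are given as CPM, counts scaled to library size after TMM normalization. Map3k7 (ENSMUSG00000028284, chromosome 4 of GRCm38, 31964097 to 32023467) was at 128, 123, 126 and 133 CPM in the iCre CTRL libraries 1 to 4 and at 129, 124, 122 and 130 CPM with IL-1β. The levels of both groups overlapped, and Map3k7 had a log2 fold change of 0.00 with a standard error (SE) of 0.07 (adjusted p = 0.993). In LacZ fibroblasts, Map3k7 was at 153 ± 6.51 CPM (SD, n = 4) without and 220.0 ± 17.9 CPM (SD, n = 4) with IL-1β, a log2 fold change of 0.53. These counts cover all exons, so transcripts of the recombined allele are included and they are no measure of how completely exon 2 was removed. Of the 10 fibroblast markers examined, 10 had a mean of at least 1 CPM, with a summed level of 20810 to 37000 CPM in CTRL and 22850 to 35690 CPM with IL-1β in iCre fibroblasts. Of the 10 fibroblast markers, 3 were called raised and 3 lowered, and 0 without the replicate block. The summed level of 9 leukocyte and macrophage markers, of which 4 reached 1 CPM, was 28.3 to 81.95 CPM in CTRL and 34.2 to 109 CPM with IL-1β. Of these 9, 4 were called raised (44.4%, beside 33.7% of protein-coding genes with at least 1 CPM), but 0 without the replicate block. The sum of 6 endothelial markers was 11.5 to 19.7 CPM in CTRL and 9.07 to 13.1 CPM with IL-1β, and that of 4 cardiomyocyte markers 6.55 to 43.9 and 2.18 to 16 CPM. For 6 pericyte and smooth muscle markers the sum was 740 to 1425 and 931 to 1632 CPM, with 2 called raised and 1 lowered, but 0 without the block. For 6 epicardial and Schwann markers it was 5.99 to 11.4 and 4.34 to 9.15 CPM. The leukocyte sum was mostly Lyz2, the cardiomyocyte sum mostly Tnnt2, and Actc1 had no count in the iCre CTRL libraries. Ptprc, which all leukocytes express, had a mean of 0.834 CPM in CTRL and 0.577 CPM with IL-1β. In such bulk samples, a change in the number of cells of a kind and a change in RNA per cell cannot be told apart.

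The 4 iCre IL-1β libraries stood apart from the 4 iCre CTRL libraries in base composition. Across protein-coding genes within a library, the slope of the level (log2 of CPM with 0.5 added) on GC content was −0.098 to −0.024 for each 10% of GC in the CTRL libraries and 0.197 to 0.295 in the IL-1β libraries. The iCre libraries with TGFβ or TNFα had slopes between 0.166 and 0.284, whereas those of all LacZ groups and of iCre with bFGF lay between −0.258 and −0.101. Among 12234 protein-coding genes with at least 1 CPM, the median log2 fold change with IL-1β in iCre fibroblasts went from −0.35 among the 2453 genes with the lowest GC content (31.0% to 43.8%) to 0.21 among the 2440 with the highest. Of the former, 256 genes were raised and 1503 lowered, and of the latter 1194 were raised and 257 lowered. In LacZ fibroblasts, the medians of the same 5 bins lay between 0.00 and 0.03. After a correction that removes a smooth trend on GC content from each library, the iCre medians lay between 0.00 and 0.03. The part of base composition in each gene's change was not tested, so values with this correction stand beside the genes described here whose call it changed.

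IL-1β was also compared with TGFβ in iCre fibroblasts, since both groups have slopes of this kind, and the 5 medians by GC content then lay between −0.02 and 0.05. In this comparison 4418 genes (17.5%) had a higher level with IL-1β and 3771 (15.0%) had a lower level. The median log2 difference was 4.02 for neutrophil-attracting chemokines and colony-stimulating factors, 2.07 for complement, acute-phase and adhesion genes and 0.63 for NF-κB subunits and inhibitors, beside 0.12 over all genes tested. It was −1.80 for myofibroblast and matrix genes and −1.64 for cholesterol and fatty acid synthesis, and the part of TGFβ itself in these differences was not tested. Of 38 interferon-stimulated genes with their IRF and STAT factors, 26 had a higher and 1 a lower level with IL-1β than with TGFβ (median 1.10). Of 16 Toll-like receptors and their adaptors, 9 had a higher and 0 a lower level (median 1.29). Of 20 glycolysis and hypoxia genes, 1 had a higher and 13 a lower level (median −0.60). Of 29 DNA replication and mitosis genes, 3 had a higher and 12 a lower level (10.3% and 41.4%, median −0.32). Among protein-coding genes with at least 1 CPM, 30.3% had a higher and 27.3% a lower level in this comparison.

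**Figure D1:**
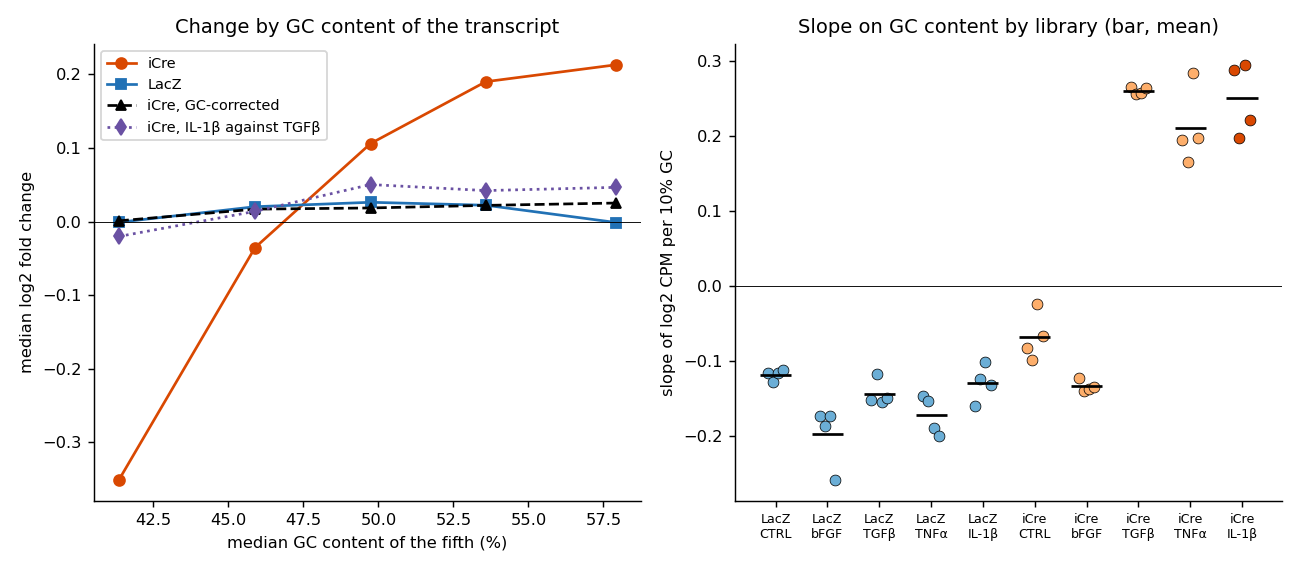
Median log2 fold change with IL-1β in 5 bins of GC content (left) and slope of log2 CPM on GC content in each library (right, points, with the mean as a bar). In iCre fibroblasts the median goes from −0.35 in the lowest to 0.21 in the highest bin, and the slopes of the iCre IL-1β libraries (0.197 to 0.295) lie above those of the iCre CTRL libraries (−0.098 to −0.024).

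A broad response to IL-1β remained without TAK1. With edgeR's quasi-likelihood test, with the replicate number as a block, and a Benjamini-Hochberg adjusted p of at most 0.05, 4570 of 25210 genes (18.1%) were raised and 3943 (15.6%) lowered in iCre fibroblasts. At least 2-fold changes were called for 697 raised and 963 lowered genes. In LacZ fibroblasts 4098 genes (16.3%) were raised and 4357 (17.3%) lowered, with at least 2-fold changes for 977 and 1459 genes. Without the block, 2364 genes were raised and 1734 lowered in iCre fibroblasts, with at least 2-fold changes for 446 and 563 genes. With the GC correction, 3878 (15.5%) were raised and 3577 (14.3%) lowered of 24970 genes. Of the genes raised in iCre fibroblasts, 2518 were also raised in LacZ fibroblasts, which is 55.1% of the former and 61.4% of the latter. Of those lowered, 2099 were lowered in both (53.2% of the iCre and 48.2% of the LacZ genes), but 585 without the block (33.7% and 24.3%), and with a log2 change of 3 or more in both, 6 (14.0% and 3.68%). Among the 12234 protein-coding genes with at least 1 CPM, from which most listed genes come, 33.7% were raised and 26.4% lowered in iCre fibroblasts, and these shares are the background for the counts by list. Without the block they were 17.8% and 12.1%. In LacZ fibroblasts 29.7% of these genes were raised and 26.5% lowered, and the interaction was positive for 14.3% and negative for 17.2%. Another 279 genes were raised in iCre but lowered in LacZ, and 362 were lowered in iCre but raised in LacZ. These are 6.11% of the raised and 9.18% of the lowered genes in iCre fibroblasts. The 2 counts were 44 and 96 without the block, and 234 and 196 with the GC correction.

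The size of the response was tested as an interaction over 16 libraries, which asks whether the IL-1β effect differed between iCre and LacZ. The interaction was negative, meaning a smaller or more negative effect without TAK1, for 2263 genes (8.98%), and positive for 1992 genes (7.90%). The number of positive interactions depended on single replicate numbers: it was 1125 without replicate 3 and 1212 without replicate 4. With the GC correction, 1650 (6.61%) were negative and 1413 (5.66%) positive, and without the block 1247 were negative and 696 positive. Among the 700 genes with at least 1 CPM that IL-1β raised at least 2-fold in LacZ fibroblasts, 580 were raised in iCre fibroblasts, 97 passed no test and 23 were lowered. The median log2 fold change of these 700 genes was 1.60 in LacZ and 0.93 in iCre fibroblasts. The genes were chosen by their size in LacZ and the interaction subtracts that same effect, so this choice alone favours a larger LacZ median and negative interactions, and the counts are descriptions. For 378 of the 700 the interaction was negative, for 316 it was not called, and for 6 it was positive. Of the 99 genes raised by a log2 fold change of at least 3 in LacZ fibroblasts, 90 were raised in iCre fibroblasts, with a median log2 fold change of 2.38 against 3.71, and 71 had a negative interaction. Of 757 genes lowered at least 2-fold in LacZ fibroblasts, 585 were lowered in iCre fibroblasts.

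**Figure D2:**
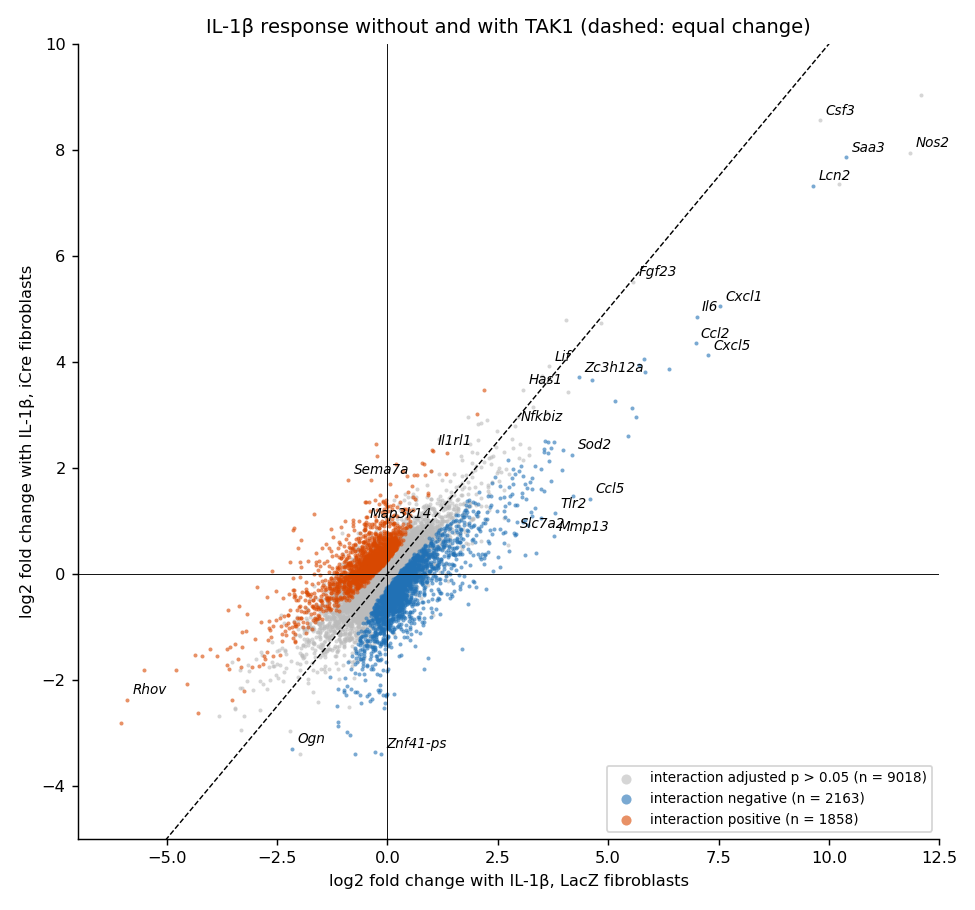
Log2 fold change with IL-1β in LacZ (x axis) and iCre fibroblasts (y axis), each point a gene with at least 1 CPM. The dashed line marks equal change. Interactions were negative for 2163 of these genes, positive for 1858 and not called for 9018. Of the 99 genes raised by at least 3 in LacZ fibroblasts, 71 have a negative interaction, which choosing them by their LacZ effect favours.

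Saa3, Lcn2, Nos2, Csf3, Cxcl1 and Il6 were among the 10 named genes with the largest increases without TAK1. Saa3 (chromosome 7, 46711998 to 46715700), an acute-phase serum amyloid A, was at 0.589, 1.53, 0.439 and 0.869 CPM in the iCre CTRL libraries 1 to 4 and at 321, 176, 115 and 198 CPM with IL-1β. Lcn2 (chromosome 2, 32384633 to 32388252), the iron-siderophore-binding protein lipocalin 2, was at 1.70, 3.61, 2.21 and 2.61 CPM and at 439, 292, 354 and 573 CPM. For both genes every IL-1β library lay far above every CTRL library. The log2 fold change was 7.86 (SE 0.12) for Saa3 and 7.33 (SE 0.11) for Lcn2, each with an adjusted p of 7.95e-107. P-values this small, and the standard errors of the changes in iCre fibroblasts, rest on a spread shared over genes. The fit gave 148 prior degrees of freedom beside the 3 of a gene's own. Such a standard error is therefore no measure of how far the 4 pairs of a single gene differ. With limma voom, the adjusted p was 1.76e-06 for Saa3 and 4.07e-07 for Lcn2. In LacZ fibroblasts, where IL-1β brought Saa3 to 4475 ± 479 CPM and Lcn2 to 2995 ± 833 CPM (SD, n = 4), the log2 fold changes were 10.39 and 9.64. The interaction was −2.46 (SE 0.58, adjusted p = 0.00554) for Saa3 and −2.29 (SE 0.43, adjusted p = 0.000974) for Lcn2.

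Other genes with the largest increases were nearly silent without ligand. Nos2 (chromosome 11, 78920787 to 78960254), inducible nitric oxide synthase, had 2, 0, 1 and 2 counts in the iCre CTRL libraries 1 to 4 and was at 7.20, 6.33, 9.12 and 15.2 CPM with IL-1β, a ratio of 255 after scaling (95% exact interval 109 to 787, for counting error only). In LacZ fibroblasts, IL-1β brought Nos2 to 357 ± 117 CPM (SD, n = 4), a log2 fold change of 11.84. The interaction for Nos2 was −3.88 with a standard error of 1.42 and an adjusted p of 0.0702, so that with controls this near 0 the ratio of both responses was measured poorly. Csf3 (chromosome 11, 98701263 to 98703629), the neutrophil growth factor G-CSF, had 1 count over the 4 iCre CTRL libraries and 779 with IL-1β, a ratio of 543 after scaling (95% exact interval 97.1 to 21500, for counting error only). It was at 2.84, 5.47, 2.08 and 5.49 CPM with IL-1β in iCre fibroblasts, and at 27.7 ± 4.57 CPM (SD, n = 4) in LacZ fibroblasts, with an interaction of −1.32 (SE 2.93, adjusted p = 0.849). Sprr2e and Sprr2b, which encode small proline-rich proteins of the cornified envelope, also rose, and since members of that family are alike in sequence, the assignment of reads among them is uncertain. Sprr2e had 1 count in CTRL and 975 with IL-1β, a ratio of 679 (95% exact interval 122 to 26800). Fgf23, a phosphate-regulating hormone, was at 3.35, 5.04, 4.72 and 11.0 CPM with IL-1β against at most 0.214 CPM in CTRL, and its log2 fold change was 5.51 in iCre and 5.56 in LacZ fibroblasts. Kcnk10, a potassium channel, was at 0.879, 5.18, 1.30 and 4.04 CPM against at most 0.275 CPM, a log2 fold change of 4.79 (SE 0.33).

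In the list of neutrophil-attracting chemokines and colony-stimulating factors, 7 of 9 genes were raised and 1 lowered, with a median log2 fold change of 4.12 beside 0 over all genes tested. In LacZ fibroblasts the median of these 9 genes was 6.03, beside −0.09 over all genes tested, and the interaction was negative for 4 of the 9 and positive for 0. Of the homeostatic and interferon-type CXC chemokines, 3 of 8 were raised and 0 lowered in iCre fibroblasts (37.5%, near the 33.7% of expressed protein-coding genes), and 5 raised and 0 lowered in LacZ fibroblasts. Cxcl1 was at 4.68, 4.10, 2.81 and 1.91 CPM in the iCre CTRL libraries 1 to 4 and at 178, 64.3, 105 and 109 CPM with IL-1β. Cxcl5 was at 4.45, 23.2, 5.94 and 5.28 CPM and at 135, 252, 106 and 94.2 CPM. For both chemokines, which bind CXCR2 on neutrophils, the groups did not overlap, and replicate 2 was highest for Cxcl5 in both groups. The log2 fold change of Cxcl1 was 5.05 (SE 0.11) in iCre and 7.52 in LacZ fibroblasts, with an interaction of −2.49 (adjusted p = 2.26e-05). That of Cxcl5 was 4.12 (SE 0.10) in iCre and 7.26 in LacZ fibroblasts, and its interaction of −3.31 (SE 0.40, adjusted p = 1.26e-05) was the most negative among the called interactions of genes named here. Csf1, the macrophage growth factor M-CSF, was at 379, 376, 508 and 549 CPM in CTRL and at 874, 552, 923 and 1082 CPM with IL-1β. Every IL-1β library was above every CTRL library for Csf1, with a log2 fold change of 0.92 (SE 0.07) against 1.73 in LacZ fibroblasts.

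The CC chemokines and Cx3cl1 gave 13 raised and 0 lowered genes of 18 in iCre fibroblasts, with a median log2 fold change of 1.47, and without the block 5 raised and 0 lowered. With limma voom, 13 were raised. The interaction was negative for 5 and positive for 1 of the 18 genes, and with the GC correction negative for 5 and positive for 3. Ccl2 (chromosome 11, 82035571 to 82037453), the monocyte attractant MCP-1, was at 20.9, 41.4, 12 and 31.9 CPM in the iCre CTRL libraries 1 to 4 and at 518, 441, 353 and 703 CPM with IL-1β. Ccl7, which also attracts monocytes, was at 14.4, 16.3, 8.59 and 19.0 CPM and at 258, 171, 202 and 315 CPM. All IL-1β libraries lay above all CTRL libraries for both. The log2 fold changes were 4.36 (SE 0.10) for Ccl2 and 4.06 (SE 0.09) for Ccl7 in iCre fibroblasts, and 6.98 and 5.81 in LacZ fibroblasts. The interaction was −2.67 (adjusted p = 4.79e-05) for Ccl2 and −1.70 (adjusted p = 0.00128) for Ccl7. Ccl5, a T cell and monocyte attractant, was at 1.28, 2.85, 2.31 and 5.88 CPM in CTRL and at 5.65, 8.38, 5.01 and 11.8 CPM with IL-1β, so the groups overlapped while every pair rose. Its log2 fold change of 1.42 (SE 0.14) passed the test with the block but not without it (adjusted p = 0.0647), and it was 4.59 in LacZ fibroblasts. Cx3cl1, the membrane-bound chemokine fractalkine, was at 96.6 to 118 CPM in CTRL and 167 to 274 CPM with IL-1β.

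Promoter sequences are shown for 4 induced genes whose responses differ between iCre and LacZ in different degrees: Cxcl1 and Il6, which stayed strongly induced without TAK1, Lif, which showed no called difference, and Tlr2, which was induced far less. Each is the 250 bases before the annotated start (RefSeq, GRCm38.p6), read 5′ to 3′ on the gene's strand, with the match to the NF-κB consensus in capitals.
Cxcl1: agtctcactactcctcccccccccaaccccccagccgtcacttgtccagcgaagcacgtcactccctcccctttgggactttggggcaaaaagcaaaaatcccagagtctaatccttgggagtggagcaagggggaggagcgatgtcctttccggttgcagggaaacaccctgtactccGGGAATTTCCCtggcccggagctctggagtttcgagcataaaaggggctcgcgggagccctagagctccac
Il6: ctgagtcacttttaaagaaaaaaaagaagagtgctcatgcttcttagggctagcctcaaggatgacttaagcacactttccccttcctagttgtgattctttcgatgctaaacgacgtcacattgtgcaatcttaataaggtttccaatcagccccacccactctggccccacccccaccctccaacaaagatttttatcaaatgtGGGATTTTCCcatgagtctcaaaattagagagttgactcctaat
Lif: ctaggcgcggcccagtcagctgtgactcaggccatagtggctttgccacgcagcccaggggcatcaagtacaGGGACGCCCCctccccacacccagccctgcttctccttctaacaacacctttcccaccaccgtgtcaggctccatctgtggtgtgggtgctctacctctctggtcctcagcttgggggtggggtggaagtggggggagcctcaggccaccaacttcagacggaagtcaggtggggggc
Tlr2: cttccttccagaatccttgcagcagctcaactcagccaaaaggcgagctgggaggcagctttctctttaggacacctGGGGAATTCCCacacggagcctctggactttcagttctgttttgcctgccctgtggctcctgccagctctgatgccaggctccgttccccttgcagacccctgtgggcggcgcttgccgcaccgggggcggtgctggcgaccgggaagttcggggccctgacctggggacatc

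The promoter of Cxcl1 is at chr5:90890995-90891244 on the plus strand, with the match 71 to 61 bases before the start. That of Il6 is at chr5:30012864-30013113 on the plus strand, with the match 44 to 35 bases before the start. The Lif promoter is at chr11:4257318-4257567 on the plus strand (match 178 to 169 bases before the start), and the Tlr2 promoter at chr3:83841609-83841858 on the minus strand (match 173 to 163 bases before the start). The NF-κB consensus, searched on both strands, was present in 7.25% of the 32851 promoters of this length, and the AP-1 motif TGANTCA in 6.75%. Of 9972 genes with at least 1 CPM and a promoter in the table, 10.7% had the NF-κB consensus and 5.59% the AP-1 motif. Of the 52 such genes raised at least 4-fold in iCre fibroblasts, 8 (15.4%) had the NF-κB consensus and 12 (23.1%) the AP-1 motif. Of the 40 lowered at least 4-fold, 4 (10.0%) and 2 (5.0%) had them. These shares are descriptions, since a match is not a bound site. Promoters were found for 83 of the 116 genes whose levels were examined in each library. Those missing include Csf3, Nos2, Cxcl5, Ccl2, Ccl7 and Nfkbiz, all raised at least 4-fold in iCre fibroblasts, so the shares leave them out. Sprr2b and Sprr2e, from a family alike in sequence, each carry the AP-1 motif.

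Among cytokines of the IL-6 family, which act through the shared receptor chain gp130, Il6 and Lif both rose. Il6 (chromosome 5, 30013114 to 30019981) was at 1.60, 1.41, 1.42 and 2.78 CPM in the iCre CTRL libraries 1 to 4 and at 59.1, 21.1, 34.4 and 113 CPM with IL-1β. Lif (chromosome 11, 4257557 to 4272514), leukaemia inhibitory factor, was at 4.45, 6.92, 3.61 and 5.49 CPM and at 59.4, 70.1, 53.4 and 140 CPM. No IL-1β library overlapped the CTRL range for either gene, and replicate 4 was highest with IL-1β for both. Il6 had a log2 fold change of 4.86 (SE 0.11) in iCre and 7.01 in LacZ fibroblasts, with an interaction of −2.18 (adjusted p = 0.000105), which without the block was not called (adjusted p = 0.0558). Lif had a log2 fold change of 3.92 (SE 0.10) in iCre and 3.66 in LacZ fibroblasts, with an interaction of 0.30 (SE 0.28, adjusted p = 0.559). Il11, a relative of IL-6 associated with fibrosis, was at 1.41, 3.83, 1.77 and 3.27 CPM in CTRL and at 5.40, 13.2, 9.25 and 45.8 CPM with IL-1β. Its replicate 4 with IL-1β lay well above the others, its log2 fold change was 2.55 (SE 0.14) in iCre and 1.16 in LacZ fibroblasts, and its interaction of 1.40 had an adjusted p of 0.054. Of the receptors, Osmr for oncostatin M rose by 0.54 (log2, SE 0.07) and Lifr for LIF fell by 0.62 (log2, SE 0.08) in iCre fibroblasts, while Lifr rose by 0.35 in LacZ fibroblasts. The fall of Lifr was not called in the fit over all 40 libraries (adjusted p = 0.0611). Across the list of 14 genes of this family and its receptors, 9 were raised and 1 lowered in iCre and 11 raised and 1 lowered in LacZ fibroblasts.

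**Figure D3:**
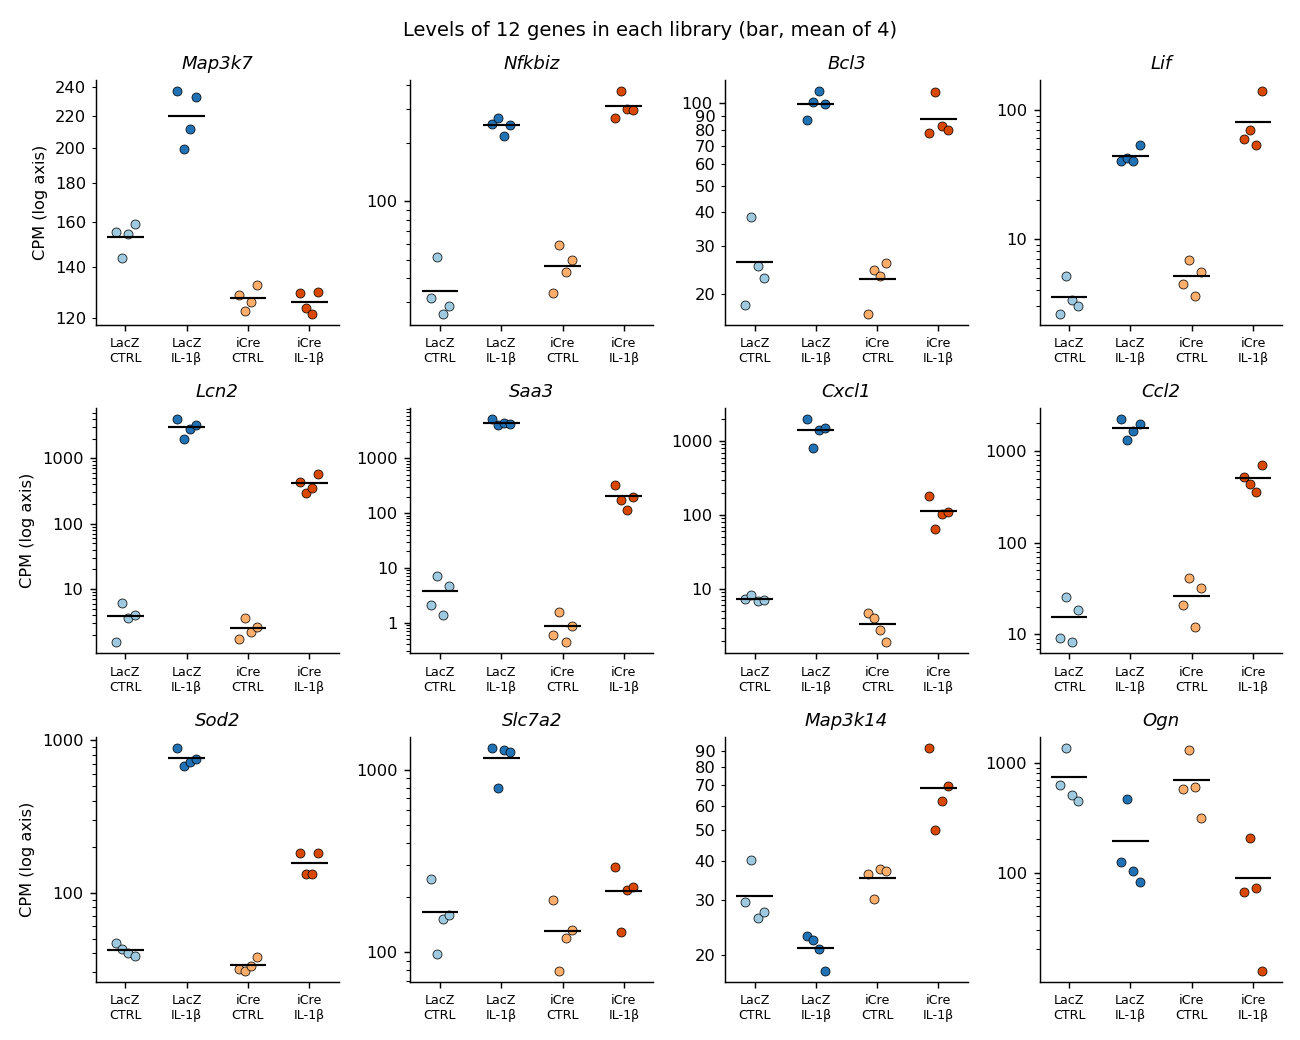
Level of 12 genes in each of the 16 libraries of the iCre and LacZ arms, in CPM on a log axis, with points as libraries and bars as the mean of 4. In iCre fibroblasts the IL-1β libraries of Nfkbiz, Bcl3, Lif, Lcn2, Saa3, Cxcl1, Ccl2, Sod2 and Map3k14 lie above the CTRL libraries, those of Map3k7 and Slc7a2 overlap them, and those of Ogn lie below.

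The NF-κB subunits and inhibitors, many of which are themselves targets of NF-κB, showed 17 raised and 0 lowered genes of 22 in iCre fibroblasts. Their median log2 fold change was 0.69 in iCre and 1.05 in LacZ fibroblasts, where 19 were raised and 1 lowered, and the interaction was negative for 12 and positive for 1. Nfkbiz (chromosome 16, 55811375 to 55838899) encodes IκBζ, a nuclear cofactor of NF-κB that promotes secondary response genes. It was at 33.4, 59.4, 42.9 and 49.5 CPM in the iCre CTRL libraries 1 to 4 and at 270, 373, 301 and 299 CPM with IL-1β. Bcl3, an atypical nuclear IκB protein, was at 17.0, 24.5, 23.4 and 26.0 CPM and at 78.1, 110, 82.7 and 79.5 CPM. The ranges did not overlap for either gene. Nfkbiz had a log2 fold change of 2.79 (SE 0.08) in iCre and 2.90 in LacZ fibroblasts, an interaction of −0.13 (SE 0.16, adjusted p = 0.671). Bcl3 had 1.97 (SE 0.08) in iCre and 1.98 in LacZ fibroblasts, an interaction of −0.02 (SE 0.16, adjusted p = 1.0). A missing call at this standard error does not show that both arms responded alike.

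Tnfaip3, Nfkbia and Tnip1, which restrain NF-κB signalling, rose less in iCre than in LacZ fibroblasts. Tnfaip3, the ubiquitin-editing enzyme A20, was at 13.6, 7.74, 18.9 and 19.0 CPM in CTRL and at 54.3, 24.4, 48.7 and 44.6 CPM with IL-1β. All of its IL-1β libraries lay above its CTRL libraries, with a log2 fold change of 1.57 (SE 0.09) in iCre and 3.54 in LacZ fibroblasts, and the interaction was −2.04 (SE 0.24, adjusted p = 1.09e-05). Nfkbia, the inhibitor IκBα, was at 23.4 to 27.6 CPM in CTRL and 73.8 to 95.3 CPM with IL-1β, with a log2 fold change of 1.66 against 2.55 and an interaction of −0.90 (adjusted p = 2.92e-05). Tnip1, an A20-binding protein, rose by 0.61 (log2) in iCre and 1.58 in LacZ fibroblasts, with an interaction of −0.98 (adjusted p = 2.87e-06). The subunit genes Nfkb1, Nfkb2 and Relb rose by 0.46, 0.92 and 0.95 (log2) in iCre fibroblasts, each with a standard error of at most 0.08, and by 0.85, 1.35 and 1.43 in LacZ fibroblasts. Their interactions lay between −0.49 and −0.39 with the block, and none of the 3 was called without it (adjusted p = 0.0505, 0.133 and 0.122). The interaction of Nfkb1 was not called with the GC correction either (adjusted p = 0.106). Zc3h12a, the RNase Regnase-1 that degrades cytokine mRNAs, was at 6.71, 6.64, 9.47 and 8.17 CPM in CTRL and at 116, 76.3, 104 and 108 CPM with IL-1β. Its ranges were far apart, and the log2 fold change of 3.71 (SE 0.09) in iCre fibroblasts stood beside 4.34 in LacZ fibroblasts, with an interaction of −0.64 (adjusted p = 0.00308, and 0.0816 without the block). In the list of cytokine mRNA decay factors as a whole, 2 of 13 genes were raised and 2 lowered in iCre fibroblasts (15.4% each, below the 33.7% and 26.4% of expressed protein-coding genes and near the 18.1% and 15.6% of all genes tested), against 8 raised and 0 lowered in LacZ fibroblasts. In iCre fibroblasts 5 were raised and 1 lowered with the GC correction. Zfp36, tristetraprolin, rose by 0.92 (log2, SE 0.08) in iCre fibroblasts and had a log2 fold change of 0.21 in LacZ fibroblasts, where it was not called (adjusted p = 0.0774).

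Upstream of NF-κB, 8 of 23 genes of the IL-1 receptor and TAK1 complexes were raised and 3 lowered in iCre fibroblasts (34.8% and 13.0%), a raised share close to the 33.7% of expressed protein-coding genes, and 4 were raised and 1 lowered without the block. Il1r1, the signalling receptor, was at 142 to 177 CPM in CTRL and 212 to 250 CPM with IL-1β, without overlap, a log2 fold change of 0.56 (SE 0.07) against 0.71 in LacZ fibroblasts. Il1rap, its coreceptor, rose by 0.50 (log2, SE 0.07) in iCre and 0.43 in LacZ fibroblasts. Irak3, the inhibitory IRAK-M, was at 36.3, 14.8, 32.4 and 26.9 CPM in CTRL and at 31.3, 15.9, 28.7 and 20.5 CPM with IL-1β, with a log2 fold change of −0.15 (SE 0.08, adjusted p = 0.158). With the GC correction this became −0.24 (adjusted p = 0.0183) and without replicate 2 −0.24 (adjusted p = 0.0354), while Irak3 rose by 0.87 in LacZ fibroblasts. Il1rl1, the IL-33 receptor ST2, was at 2.0, 335, 1.06 and 5.39 CPM in CTRL and at 13.8, 879, 9.27 and 37.9 CPM with IL-1β. Replicate 2 was far above the others in both groups, every pair rose, and the log2 fold change of 2.33 (SE 0.11) was not called without the block (adjusted p = 0.657). Among other MAP3 kinases that can act on the same targets, 7 of 18 genes were raised and 3 lowered (38.9% and 16.7%), a raised share also near that background, and with the GC correction 6 were raised and 1 lowered. Map3k8, the kinase TPL2 that activates ERK, was at 5.63 to 6.84 CPM in CTRL and 16.4 to 19.9 CPM with IL-1β, a log2 fold change of 1.64 (SE 0.10) in iCre and 1.74 in LacZ fibroblasts. Map3k14 (chromosome 11, 103219762 to 103267472), the NF-κB-inducing kinase NIK of the non-canonical pathway, was at 36.2, 30.1, 37.5 and 37.1 CPM in CTRL and at 92.0, 50.3, 62.2 and 69.5 CPM with IL-1β. These groups did not overlap. Map3k14 rose by 0.95 (log2, SE 0.08) in iCre fibroblasts and fell by 0.53 in LacZ fibroblasts, with an interaction of 1.5 (SE 0.21, adjusted p = 6.65e-05).

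Complement, acute-phase and adhesion genes showed 20 raised and 1 lowered gene of 22 in iCre fibroblasts, with a median log2 fold change of 1.44 against 2.34 in LacZ fibroblasts, and 15 of them had a negative and 2 a positive interaction. C3, the central complement component, was at 500, 338, 464 and 540 CPM in CTRL and at 3284, 1843, 2538 and 1926 CPM with IL-1β. Steap4, a metalloreductase, was at 43.3, 58.9, 41.2 and 42.2 CPM and at 660, 793, 492 and 423 CPM. Neither gene's groups overlapped. C3 rose by 2.38 (log2, SE 0.08) in iCre and 3.71 in LacZ fibroblasts (interaction −1.34, adjusted p = 0.000118). Steap4 rose by 3.67 (log2, SE 0.08) in iCre and 4.64 in LacZ fibroblasts, and its interaction of −0.97 (adjusted p = 0.00195) was not called without the block (adjusted p = 0.159). Hp, haptoglobin, was at 1.11 to 3.03 CPM in CTRL and 14.5 to 39.4 CPM with IL-1β. Serpina3n, a serine protease inhibitor with close paralogs, was at 745, 209, 712 and 750 CPM in CTRL and at 3320, 1240, 2048 and 2062 CPM with IL-1β. For Serpina3n, replicate 2 was the lowest in both groups and the log2 fold change was larger in iCre (1.94, SE 0.08) than in LacZ fibroblasts (0.99), with an interaction of 0.93 (adjusted p = 0.0015, and 0.459 without the block). Vcam1 and Icam1, adhesion molecules for leukocytes, rose by 0.66 and 0.99 (log2, SE 0.07 each) in iCre fibroblasts, with adjusted p-values of 0.0517 and 0.0515 without the block. Has1, a hyaluronan synthase, was at 3.83, 5.48, 2.91 and 8.06 CPM in CTRL and at 58.0, 36.1, 35.1 and 99.6 CPM with IL-1β. It rose by 3.48 (log2, SE 0.10) in iCre and 3.07 in LacZ fibroblasts, with an interaction of 0.45 (SE 0.28, adjusted p = 0.345).

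**Figure D4:**
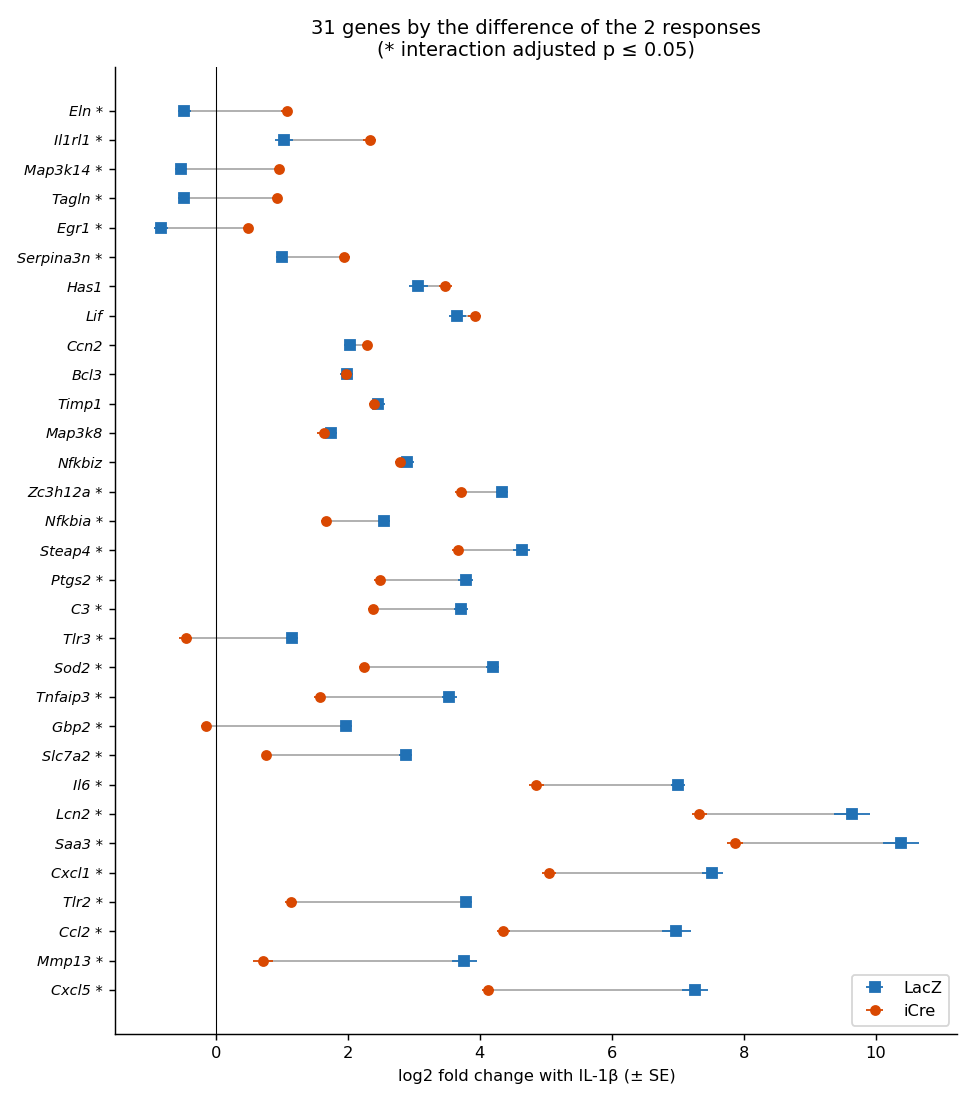
Log2 fold change with IL-1β (points) with its standard error (bars) of 31 genes in iCre and LacZ fibroblasts, with an asterisk where the interaction was called. These standard errors rest mostly on a spread shared over genes. The iCre values of Cxcl5, Ccl2, Cxcl1 and Tlr2 lie below the LacZ values, those of Lif, Nfkbiz and Bcl3 lie within 0.30 of them, and those of Map3k14 and Tagln lie above.

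Of the nitric oxide, arginine and antioxidant genes, 15 of 26 were raised and 4 lowered in iCre fibroblasts (57.7% and 15.4%), with a median log2 fold change of 0.38 against 1.08 in LacZ fibroblasts. Without the block, 7 were raised and 0 lowered. Sod2, mitochondrial superoxide dismutase, was at 31.3, 30.8, 33.2 and 37.9 CPM in CTRL and at 184, 133, 132 and 183 CPM with IL-1β, well separated. It rose by 2.25 (log2, SE 0.08) in iCre and 4.19 in LacZ fibroblasts, with an interaction of −1.95 (SE 0.14, adjusted p = 4.41e-08). Slc7a2, which carries arginine into the cell, was at 193, 79.4, 120 and 132 CPM in CTRL and at 294, 129, 218 and 230 CPM with IL-1β. Replicate 2 was the lowest in both groups and the groups overlapped. Its log2 fold change was 0.76 (SE 0.07, adjusted p = 0.113 without the block) in iCre and 2.88 in LacZ fibroblasts, with an interaction of −2.14 (SE 0.13, adjusted p = 1.38e-08). Gch1, which makes the cofactor of nitric oxide synthases, was at 2.55 to 7.53 CPM in CTRL and 14.5 to 20.8 CPM with IL-1β, a log2 fold change of 1.98 against 2.69 (interaction adjusted p = 0.148).

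In the list of interferon-stimulated genes with their IRF and STAT factors, 12 of 38 genes were raised and 11 lowered in iCre fibroblasts (31.6% and 28.9%, near the 33.7% and 26.4% of expressed protein-coding genes), while 29 were raised and 0 lowered in LacZ fibroblasts. The median log2 fold change was −0.13 in iCre and 0.53 in LacZ fibroblasts, and with the GC correction 5 were raised and 13 lowered in iCre fibroblasts. Without the block, 3 were raised and 1 lowered. Gbp2, a guanylate-binding protein, was at 80.9, 88.6, 108 and 115 CPM in CTRL and at 84.5, 78.8, 99.8 and 84.2 CPM with IL-1β. The groups overlapped, and the log2 fold change was −0.15 (SE 0.07, adjusted p = 0.108) in iCre and 1.97 in LacZ fibroblasts, with an interaction of −2.08 (SE 0.23, adjusted p = 5.16e-06). Without replicate 1 the iCre value was −0.24 (adjusted p = 0.017). Ifit1, an antiviral RNA-binding protein, was at 95.9, 132, 171 and 207 CPM in CTRL and at 58.1, 62.5, 92.2 and 114 CPM with IL-1β. Every pair of Ifit1 libraries fell while the groups overlapped, with a log2 fold change of −0.87 (SE 0.07, adjusted p = 0.0511 without the block), and the interaction of −1.30 was called only with the block and without the GC correction (adjusted p = 0.0314, 0.431 without the block and 0.0989 with the correction).

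Of the Toll-like receptors and their adaptors, 5 of 16 genes were raised and 5 lowered in iCre fibroblasts, against 9 and 2 in LacZ fibroblasts, and 7 had a negative and 0 a positive interaction. The iCre shares of 31.2% each way are near those of expressed protein-coding genes (33.7% and 26.4%), and the counts were 3 and 3 without the block and 3 and 4 with the GC correction. Tlr2, the receptor for bacterial lipoproteins, was at 11.6, 7.83, 11.7 and 12.8 CPM in CTRL and at 32.5, 17.5, 24.0 and 22.3 CPM with IL-1β in iCre fibroblasts, and at 12.2 ± 1.39 and 169 ± 26.5 CPM (SD, n = 4) in LacZ fibroblasts. The iCre groups did not overlap, with a log2 fold change of 1.14 (SE 0.09) in iCre and 3.80 in LacZ fibroblasts, and an interaction of −2.66 (SE 0.17, adjusted p = 1.44e-08). Tlr4, the receptor for lipopolysaccharide, was at 40.8 to 62.3 CPM in CTRL and 29.0 to 35.9 CPM with IL-1β, a log2 fold change of −0.57 (SE 0.08) that was −0.06 with the GC correction (adjusted p = 0.659). Tlr4 rose by 0.58 in LacZ fibroblasts. Tlr3, the receptor for double-stranded RNA, had a log2 fold change of −0.46 in iCre fibroblasts, of −0.01 with the GC correction (adjusted p = 0.99) and of 1.16 in LacZ fibroblasts.

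AP-1 factors and feedback regulators of MAP kinases showed 21 raised and 2 lowered genes of 28 in iCre fibroblasts, with a median log2 fold change of 0.73 against 0.50 in LacZ fibroblasts, and without the block 11 were raised and 0 lowered. The iCre median was 0.57 with the GC correction, and the median interaction was −0.06. The interaction was positive for 9 and negative for 4 of the 28 genes, but positive for 5 and negative for 6 with the GC correction. Junb, an AP-1 subunit, was at 73.1, 87.7, 75.7 and 91.8 CPM in CTRL and at 244, 228, 206 and 249 CPM with IL-1β, without overlap. Its log2 fold change was 1.52 (SE 0.07) in iCre and 0.91 in LacZ fibroblasts, and the interaction of 0.62 (adjusted p = 0.015) was not called with the GC correction (adjusted p = 0.223). Fosl1, another AP-1 subunit, was at 14.2 to 29.1 CPM in CTRL and 49.5 to 90.4 CPM with IL-1β. Egr2, a zinc finger factor of the immediate early class, was at 15.7, 15.8, 9.77 and 11.5 CPM in CTRL and at 31.0, 18.2, 22.5 and 22.0 CPM with IL-1β. Egr2 rose by 0.85 (log2, SE 0.10) in iCre and fell by 1.28 in LacZ fibroblasts, with an interaction of 2.23 (adjusted p = 0.000312). The rise of Egr2 in iCre fibroblasts was not called in the fit over all 40 libraries (adjusted p = 0.115). Its relatives in the early response, Fos and Egr1, rose by 0.49 and 0.48 (log2) in iCre fibroblasts, calls that were lost without the block (adjusted p = 0.0682 and 0.169), and fell by 0.79 and 0.84 in LacZ fibroblasts. Nr4a1, the orphan nuclear receptor NUR77, was at 45.2, 50.0, 34.9 and 46.4 CPM in CTRL and at 114, 83.6, 108 and 158 CPM with IL-1β. Nr4a1 rose by 1.39 (log2, SE 0.08) without overlap in iCre fibroblasts, while it was not called in LacZ fibroblasts (−0.03, adjusted p = 0.912), and the interaction was 1.47 (SE 0.27, adjusted p = 0.000794).

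For prostaglandin and leukotriene genes, 10 of 27 were raised and 5 lowered (37.0% and 18.5%, beside 33.7% and 26.4% of expressed protein-coding genes), and 6 were raised and 2 lowered without the block. Ptgs2, the inducible cyclooxygenase COX-2, was at 15.3, 33.4, 22.2 and 31.0 CPM in CTRL and at 81.6, 133, 111 and 275 CPM with IL-1β in iCre fibroblasts, with no overlap. In LacZ fibroblasts it was at 11.4 ± 6.11 and 149 ± 45.7 CPM (SD, n = 4). The log2 fold change was 2.48 (SE 0.08) in iCre and 3.79 in LacZ fibroblasts, and the interaction of −1.22 (adjusted p = 0.00416) was lost both without the block (adjusted p = 0.25) and with the GC correction (adjusted p = 0.0761). Ptges, which turns the product of COX-2 into prostaglandin E2, rose by 1.34 (log2, SE 0.08) in iCre and 1.46 in LacZ fibroblasts, with an interaction of −0.13 (SE 0.18, adjusted p = 0.721).

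Among myofibroblast and matrix genes, 27 of 38 were raised and 8 lowered in iCre fibroblasts (71.1% and 21.1%), against 16 and 12 in LacZ fibroblasts, and with the GC correction 19 were raised and 8 lowered. Without the block 8 were raised and 0 lowered (21.1% raised, beside 17.8% of expressed protein-coding genes). Ccn2, a matricellular growth factor also known as CTGF, was at 263, 96.0, 180 and 295 CPM in CTRL and at 1399, 428, 895 and 1328 CPM with IL-1β. For Ccn2, replicate 2 was the lowest in each group and the groups did not overlap. It rose by 2.28 (log2, SE 0.08) in iCre and 2.03 in LacZ fibroblasts, with an interaction of 0.21 (SE 0.27, adjusted p = 0.7). Acta2, smooth muscle actin of myofibroblasts, was at 96.2 to 166 CPM in CTRL and 201 to 331 CPM with IL-1β, a log2 fold change of 1.28 (SE 0.07) against 0.93. Tagln, the actin-binding protein transgelin, was at 63.1, 69.4, 83.4 and 56.2 CPM in CTRL and at 130, 117, 134 and 125 CPM with IL-1β, without overlap. Tagln rose by 0.92 (log2, SE 0.07) in iCre and fell by 0.49 in LacZ fibroblasts, with an interaction of 1.37 (SE 0.23, adjusted p = 0.000383). The collagen gene Col1a1 had a log2 fold change of 0.26 (SE 0.07, adjusted p = 0.00112), which was not called without the block (adjusted p = 0.49) or with the GC correction (0.08, adjusted p = 0.472). Postn, the matrix protein periostin, was among the lowered genes, at 560, 160, 235 and 229 CPM in CTRL and at 381, 60.9, 156 and 163 CPM with IL-1β. Every pair of Postn libraries fell while the groups overlapped, and its log2 fold change of −0.73 (SE 0.08) was not called without the block (adjusted p = 0.486), over all 40 libraries (adjusted p = 0.145) or with the GC correction (0.04, adjusted p = 0.845).

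The matrix metalloproteinases and their inhibitors gave 11 raised and 6 lowered genes of 24 (45.8% raised). Without the block 4 were raised and 0 lowered, and the raised share of 16.7% was near the 17.8% of expressed protein-coding genes. Timp1, an inhibitor of metalloproteinases, was at 364, 250, 366 and 487 CPM in CTRL and at 1950, 1129, 1508 and 3530 CPM with IL-1β. Mmp3, stromelysin 1, was at 993, 802, 649 and 584 CPM and at 1807, 1739, 918 and 1050 CPM. The groups were separate for Timp1 and overlapped for Mmp3, in which every pair rose. Timp1 rose by 2.39 (log2, SE 0.08) in iCre and 2.45 in LacZ fibroblasts (interaction −0.07, SE 0.23, adjusted p = 0.929), and Mmp3 by 0.85 (SE 0.07) and 2.55 (interaction −1.71, adjusted p = 0.000535). In the fit over all 40 libraries the rise of Mmp3 in iCre fibroblasts was not called (adjusted p = 0.0833). Timp3, the matrix-bound inhibitor, was at 2044, 550, 1125 and 1128 CPM in CTRL and at 1777, 377, 1035 and 849 CPM with IL-1β. Its log2 fold change of −0.30 in iCre fibroblasts was not called without the block (adjusted p = 0.793), and it fell by 2.12 in LacZ fibroblasts. Mmp13, a collagenase, had a log2 fold change of 0.71 in iCre fibroblasts that was not called without the block (adjusted p = 0.252), with limma voom (adjusted p = 0.131) or without replicate 4 (0.37, adjusted p = 0.0615).

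Of glycolysis and hypoxia genes, 18 of 20 were raised and 1 lowered in iCre fibroblasts, with a median log2 fold change of 0.94 against 1.55 in LacZ fibroblasts. Hk2, hexokinase 2, was at 10.7, 11.9, 8.99 and 14.2 CPM in CTRL and at 57.8, 52.4, 47.8 and 79.4 CPM with IL-1β, without overlap, a log2 fold change of 2.38 (SE 0.08) against 3.21. Ldha, lactate dehydrogenase A, was at 284 to 351 CPM in CTRL and 597 to 995 CPM with IL-1β. Of the cholesterol and fatty acid synthesis genes, 16 of 23 were raised and 2 lowered in iCre, and 22 raised and 0 lowered in LacZ fibroblasts, with medians of 0.42 and 1.09, and the interaction was negative for 11 and positive for 0. Without the block, 7 were raised and 0 lowered in iCre fibroblasts. Hmgcs1, an enzyme of cholesterol synthesis, was at 80.9, 59.5, 85.0 and 101 CPM in CTRL and at 105, 60.4, 90.1 and 89.6 CPM with IL-1β. Its log2 fold change was 0.10 (adjusted p = 0.369), or 0.30 with the GC correction (adjusted p = 0.000795), and 1.28 in LacZ fibroblasts.

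In the DNA replication and mitosis list, 18 of 29 genes were raised and 1 lowered in iCre fibroblasts, whereas 3 were raised and 16 lowered in LacZ fibroblasts, and the interaction was positive for 16 and negative for 1. The medians were 0.36 and −0.28 (log2). Without the block, 5 were raised and 0 lowered in iCre fibroblasts, and the raised share of 17.2% was then near the 17.8% of expressed protein-coding genes. Pcna, the sliding clamp of DNA polymerases, was at 23.0, 21.7, 21.2 and 25.3 CPM in CTRL and at 35.8, 31.1, 28.8 and 44.2 CPM with IL-1β, without overlap, a log2 fold change of 0.62 (SE 0.08) against 0.11 in LacZ fibroblasts, where it was not called (adjusted p = 0.393). Mki67, which marks cycling cells, was at 14.0, 9.06, 24.9 and 36.8 CPM in CTRL and at 19.0, 11.4, 30.0 and 62.4 CPM with IL-1β. The Mki67 groups overlapped, every pair rose, and the log2 fold change of 0.48 (SE 0.08) was not called without the block (adjusted p = 0.547).

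Among genes of cell death and survival, 12 of 26 were raised and 5 lowered (46.2% and 19.2%), with 7 raised and 2 lowered without the block and 13 and 3 with the GC correction. Birc3, the ubiquitin ligase cIAP2 and a target of NF-κB, was at 24.9, 24.1, 26.1 and 25.4 CPM in CTRL and at 70.2, 44.1, 56.0 and 54.8 CPM with IL-1β. The CTRL libraries lay close together and below all IL-1β libraries, with a log2 fold change of 1.16 (SE 0.08) against 2.25 in LacZ fibroblasts and an interaction of −1.09 (adjusted p = 6.91e-06). Birc2, its relative cIAP1, had a log2 fold change of 0.17 (adjusted p = 0.0634) in iCre fibroblasts, which was called with the GC correction (0.39, adjusted p = 3.31e-05) and without replicate 4 (0.26, adjusted p = 0.0102), and of 1.16 in LacZ fibroblasts. Fas, a death receptor, was at 36.8, 18.4, 38.8 and 33.5 CPM in CTRL and at 73.6, 38.2, 56.8 and 64.7 CPM with IL-1β, a log2 fold change of 0.90 (SE 0.08) against 2.12. Of growth factors made by fibroblasts, 16 of 27 were raised and 8 lowered (59.3% and 29.6%), and 6 were raised and 1 lowered without the block. Vegfa, which drives vessel growth, was at 66.9, 85.5, 75.5 and 88.6 CPM in CTRL and at 170, 176, 198 and 280 CPM with IL-1β, without overlap. It rose by 1.38 (log2, SE 0.07) in iCre and 1.80 in LacZ fibroblasts. Ereg, the EGF receptor ligand epiregulin, was at 20.1, 40.0, 19.0 and 33.1 CPM in CTRL and at 86.5, 90.4, 81.7 and 167 CPM with IL-1β, a log2 fold change of 1.95 (SE 0.08) against 2.99.

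**Figure D5:**
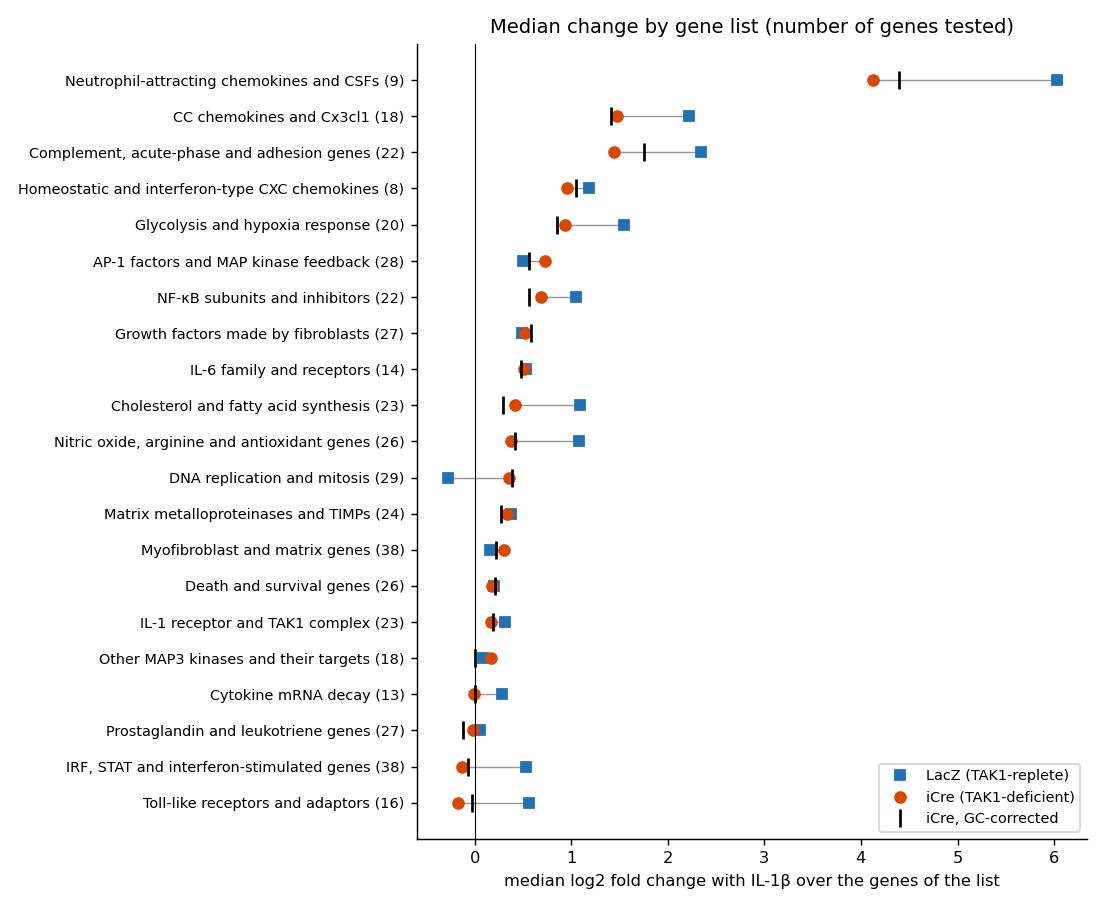
Median log2 fold change with IL-1β of the tested members of 21 gene lists, in iCre fibroblasts, in LacZ fibroblasts and in iCre fibroblasts with the GC correction. The medians of neutrophil chemokines (4.12 and 6.03), complement and acute-phase genes (1.44 and 2.34) and NF-κB genes (0.69 and 1.05) are above 0 in both arms and lower in iCre, while that of interferon-stimulated genes is −0.13 in iCre and 0.53 in LacZ.

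Among the 10 named genes with the largest decreases were Ogn, Aspn and Omd, small proteoglycans of the matrix. Ogn (chromosome 13, 49608046 to 49624501), osteoglycin, was at 579, 1309, 598 and 315 CPM in CTRL and at 66.6, 204, 71.7 and 12.8 CPM with IL-1β. Aspn, asporin, was at 96.6, 208, 97.5 and 65.0 CPM and at 8.81, 42.0, 13.6 and 5.62 CPM, and Omd, osteomodulin, was at 9.07, 9.70, 4.80 and 3.86 CPM and at 0.673, 1.47, 0.601 and 0 CPM. In none of the 3 did the groups overlap, replicate 2 was highest in each group, and replicate 4 was lowest. Ogn fell by 3.30, Aspn by 2.97 and Omd by 3.39 on the log2 scale, with standard errors of 0.10, 0.09 and 0.20, and in LacZ fibroblasts they fell by 2.15, 2.21 and 1.98. The interaction of Ogn (−1.07, adjusted p = 0.044) was lost without the block (adjusted p = 0.602) and with the GC correction (−0.37, adjusted p = 0.619), those of Aspn and Omd had adjusted p-values of 0.128 and 0.0623, and the GC content of the 3 genes was 34.4% to 36.3%. Nkain2, a membrane protein that binds the sodium pump, and Col6a6, a collagen VI chain, fell by 2.67 and 2.62 (log2) in iCre and by 3.24 and 4.29 in LacZ fibroblasts. Angpt2, a ligand of the endothelial receptor TIE2, was at 249, 78.3, 132 and 75.0 CPM in CTRL and at 37.6, 33.2, 24.8 and 3.45 CPM with IL-1β, a log2 fold change of −2.55 (SE 0.12) against −3.46.

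Znf41-ps, Snhg14 and Zfp808 were also among these 10, and the decrease of Znf41-ps was the largest, within its SE of those of Omd and Ogn. Znf41-ps, a zinc finger pseudogene whose reads may be shared with related genes, was at 3.04, 2.42, 2.69 and 3.75 CPM in CTRL and at 0.523, 0.0545, 0.292 and 0.294 CPM with IL-1β. Its log2 fold change was −3.40 (SE 0.27) in iCre and −0.16 (adjusted p = 0.532) in LacZ fibroblasts, with an interaction of −3.23 (adjusted p = 1.32e-05). Snhg14, a long non-coding host RNA of small nucleolar RNAs, was at 1.74 to 2.72 CPM in CTRL and 0.241 to 0.258 CPM with IL-1β, and its log2 fold change was −3.04, or −1.83 with the GC correction (adjusted p = 3.61e-07). Zfp808, a KRAB zinc finger gene, fell by 2.79 (log2, SE 0.19) in iCre and 1.13 in LacZ fibroblasts.

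Further genes had a response that differed strongly between iCre and LacZ fibroblasts. Among those with the most negative interactions, Slc39a4, a zinc importer, was at 0.655, 1.71, 0.518 and 0.278 CPM in CTRL and at 4.39, 6.58, 5.05 and 6.98 CPM with IL-1β, a log2 fold change of 2.96 against 5.63 in LacZ fibroblasts. Tnfrsf9, the costimulatory receptor 4-1BB, rose by 1.47 against 4.20, and Sprr2g by 2.6 against 5.44, an interaction that was not called without the block (adjusted p = 0.0846). Among those with the most positive interactions, Rhov, a small GTPase, fell by 2.38 (log2, SE 0.25) in iCre and 5.89 in LacZ fibroblasts. Wnt4, a signalling ligand, fell by 1.53 (SE 0.19) and 4.35, and Cilp, a cartilage matrix protein found in the heart, fell by 1.56 (adjusted p = 0.0532 without the block) and 3.86. Sema7a, a membrane-anchored semaphorin, was at 9.0, 27.1, 8.29 and 20.3 CPM in CTRL and at 29.6, 56.4, 34.6 and 95.1 CPM with IL-1β. It rose in every pair and by 1.78 (log2, SE 0.09) in iCre fibroblasts, fell by 0.89 in LacZ fibroblasts, and had an interaction of 2.81 (SE 0.38, adjusted p = 3.98e-05).

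Genes raised in iCre fibroblasts and not called in either direction in LacZ fibroblasts, with a positive interaction, were also ranked, which leaves out Sema7a because it was lowered in LacZ fibroblasts. Of the 6 with the largest increase, 4 were the ribosomal protein pseudogenes Rps18-ps3, Rps10-ps1, Rpl3-ps1 and Rps15a-ps6, with log2 fold changes of 2.06, 1.49, 1.36 and 1.31 and standard errors between 0.15 and 0.21. Their reads can also stem from the parent genes, so these values are uncertain, and their replicates 1 and 2 with IL-1β lay above replicates 3 and 4. The interactions of Rpl3-ps1 and Rps15a-ps6 were not called without the block (adjusted p = 0.1 and 0.0547), nor was that of Kng2 (adjusted p = 0.171), and with the GC correction those of Rpl3-ps1 and Kng2 had adjusted p-values of 0.0853 and 0.0511. The others were Nr4a1, described above, and Kng2, a kininogen, at 0.524 to 0.765 CPM in CTRL and 1.76 to 2.06 CPM with IL-1β. In the families with at least 1 CPM, which were chosen after their values were seen, 75 of 87 ribosomal protein genes were raised and 5 lowered in iCre fibroblasts, with a median log2 fold change of 0.40. In LacZ fibroblasts 1 of the 87 was raised and 41 lowered, and the interaction was positive for 74 and negative for 3. With the GC correction 70 were raised and 4 lowered in iCre fibroblasts. With IL-1β against TGFβ in iCre fibroblasts, 2 of the 87 had a higher and 5 a lower level (median log2 difference −0.07). Of 20 ribosomal protein pseudogenes with at least 1 CPM, 0 had a higher and 0 a lower level in that comparison.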

How the data were processed

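RNA of mouse cardiac fibroblasts was sequenced, and the table that the authors deposited holds unnormalized counts of reads by Ensembl identifier in 40 libraries, 4 in each of 10 groups. Per the methods, reads were aligned with STAR. The submitters' processing notes name FastQC 0.10.1, HTSeq 0.10.0 and the builds mm10 and GRCm38. The strand setting is not given in the sources used here, so reads of overlapping antisense genes cannot be told apart. The labels name a NEBNext Ultra II kit and the methods a TruSeq Stranded kit. Reads carried no molecular identifiers, so intervals cover counting error only.

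Genes with at least 10 counts over the 40 libraries were tested with edgeR 4.0.16 in R 4.3.3 (quasi-likelihood test, TMM normalization, replicate number as block, 4 libraries against 4) and Benjamini-Hochberg adjustment over all genes tested, at a threshold of 0.05. The interaction was fitted over 16 libraries. Same-numbered CTRL and IL-1β libraries of the iCre arm deviated together from their group means, with r between 0.602 and 0.861 over 13090 genes, against −0.616 to 0.192 for different numbers. The labels give the numbers but not what they share. By a rule that every same-numbered pair should exceed 0.1, they were taken as pairs. No libraries of a group agreed within sampling noise.

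The GC correction fits a lowess trend (span 0.3) of each library's log2 deviations on the GC content of a gene's longest transcript in GENCODE M21, over protein-coding genes, and enters as an offset for 24970 genes. Alternatives were no block, the GC correction, DESeq2 1.42.0, RLE normalization, filterByExpr, no filter, protein-coding genes only, all 40 libraries in a single fit, each replicate number left out and a log2 fold change of at least 1. limma 3.58.1 voom was added after seeing the data. Scripts were tested on simulated data. Tables and figures were made with Python 3.11.15, pandas 2.3.3, numpy 2.4.6 and matplotlib 3.10.9. Promoters are from RefSeq (GRCm38.p6).

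Named genes were Map3k7, key genes of 21 lists, the 10 largest increases and decreases in iCre, the 6 most negative and most positive interactions, and the 6 largest increases among genes not called in LacZ (adjusted p over 0.05) with a positive interaction, each with a call, no overlap between groups and a mean of at least 1 CPM, and without gene models. The comparison and the lists were chosen with earlier results of these data known. Aldoa, which has 2 identifiers, was left out, and some genes that the rule names are not reported here.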

Additional observations from a re-analysis of the deposited data

Results flagged for a closer look

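The IL-1β effect differed between iCre and LacZ fibroblasts for 85 of the 116 genes shown, by the interaction test of edgeR with the replicate block at an adjusted p of at most 0.05, and was smaller or more negative in iCre for 58 and larger or more positive for 27. The interaction was negative for 8.98% and positive for 7.90% of all genes tested, and for 17.2% and 14.3% of protein-coding genes with at least 1 CPM. Some of the genes shown were chosen for their interaction, so this count in part restates that choice. Some of the 85 calls were lost in other fits, such as those of Ogn, Ptgs2 and Ifit1 both without the block and with the GC correction. The values that follow are the effect in iCre minus that in LacZ, on the log2 scale. Differences of at least 4-fold in the negative direction were those of Cxcl5 (−3.31), Znf41-ps (−3.23), Ccl5 (−3.09), Mmp13 (−2.94), Sprr2g (−2.81), Slc39a4 (−2.77), Tnfrsf9 (−2.72), Ccl2 (−2.67), Tlr2 (−2.66), Cxcl1 (−2.49), Saa3 (−2.46), Lcn2 (−2.29), Snhg14 (−2.21), Il6 (−2.18), Slc7a2 (−2.14), Cxcl2 (−2.10), Gbp2 (−2.08) and Tnfaip3 (−2.04). Differences between 2-fold and 4-fold were those of Sod2 (−1.95), Hp (−1.84), Mmp3 (−1.71), Ccl7 (−1.70), Zfp808 (−1.68), Tlr3 (−1.62), Iigp1 (−1.51), C3 (−1.34), Ifit1 (−1.30), Hif1a (−1.28), Pla2g4a (−1.25), Fas (−1.24), Ch25h (−1.22), Ptgs2 (−1.22), Hmgcs1 (−1.21), Tlr4 (−1.18), Birc3 (−1.10), Ogn (−1.07), Ereg (−1.06), Vcam1 (−1.05) and Irak3 (−1.04). Smaller negative differences were those of Birc2 (−0.995), Tnip1 (−0.975), Steap4 (−0.974), Lifr (−0.968), Cx3cl1 (−0.928), Nfkbia (−0.899), Scd1 (−0.895), Csf1 (−0.82), Icam1 (−0.653), Zc3h12a (−0.645), Col1a1 (−0.618), Ldha (−0.584), Map3k7 (−0.54), Relb (−0.487), Rc3h1 (−0.459), Nfkb2 (−0.443), Osmr (−0.437), Vegfa (−0.433) and Nfkb1 (−0.393). Positive differences of at least 4-fold were those of Rhov (3.35), Wnt4 (2.96), Sema7a (2.81), Cilp (2.37) and Egr2 (2.23). Smaller positive differences were those of Rps18-ps3 (1.88), Timp3 (1.80), Rps10-ps1 (1.64), Col6a6 (1.61), Eln (1.58), Il1rl1 (1.53), Map3k14 (1.5), Nr4a1 (1.47), Dusp5 (1.47), Tagln (1.37), Egr1 (1.37), Rps15a-ps6 (1.35), Fos (1.29), Mcm5 (1.22), Kng2 (1.12), Mki67 (1.11), Rpl3-ps1 (1.06), Serpina3n (0.928), Vegfd (0.878), Zfp36 (0.694), Junb (0.617) and Pcna (0.499).

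A single library stood far from the other 3 of its group in 21 of the 240 groups of values examined, and chance gives this in about 1 of 20. The measure is the gap to the nearest other library as a share of the group's range. It was 0.837 for total counts and 0.915 for the share of ribosomal protein genes in the iCre CTRL libraries. Among gene levels in the iCre CTRL libraries it was met by Il1rl1 (0.987), Cxcl5 (0.92), Csf3 (1.0), Il6 (0.857), Steap4 (0.881), Serpina3n (0.929), Vcam1 (0.966), Eln (0.836), Birc2 (0.864), Sprr2e (1.0), Tnfrsf9 (0.906) and Cilp (0.89). With IL-1β it was met by Il1rl1 (0.967), Bcl3 (0.856), Fosl1 (0.902), Fn1 (0.832), Mcm5 (0.918), Ereg (0.898) and Hgf (0.886). For Il1rl1, which stood apart in both groups, the far library was replicate 2 each time.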

How the results depend on the processing

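Without the replicate block, that is without pairing the libraries, 2364 genes were raised and 1734 lowered in iCre fibroblasts, 2408 were lowered in LacZ fibroblasts, and 696 positive and 1247 negative interactions were called. Genes raised in LacZ and also raised in iCre fibroblasts numbered 1292 without the block and 419 with a log2 change of 1 or more in both, against 2518. The blocked iCre model drew on 148 prior degrees of freedom, and the unblocked one on 4.04. The cause of the difference in calls was not tested. Leaving out 1 replicate number at a time gave 1125 to 1566 positive interactions, against 1992, with 1125 without replicate 3 and 1212 without replicate 4. The counts of calls in each comparison and of genes raised in both arms stayed within 1.5 times their values in the other settings. These settings were the DESeq2 test, RLE normalization, both filters, protein-coding genes only, all 40 libraries, limma voom and the GC correction. Counts by list and of opposite changes are not covered. For instance, 362 genes were lowered in iCre but raised in LacZ fibroblasts, and 196 with the GC correction. For the 116 genes shown, 1445 of the values under these alternatives kept direction and call, 47 lost the call (24 of them without the block) and 7 gained it. In the fit over all 40 libraries genes that lost the call included Lifr, Timp3, Mmp3, Mmp13, Ifit1, Iigp1, Tlr3, Fos, Egr1, Egr2, Postn, Col1a1, Mki67 and Vegfd. The replicate block with the GC correction turned 2 directions: Iigp1 had a log2 change of 0.0276 and Postn of 0.0377 there. Non-coding genes have no value in the setting with protein-coding genes only. With controls at or near 0 counts, as for Csf3, Nos2 and Sprr2e, depth limits the size of the fold.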

Other observations

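Families that none of the lists cover were counted after their values were seen, over genes with at least 1 CPM. Of 331 zinc finger genes with a Zfp symbol, which mostly encode DNA-binding repressors, 29 were raised and 180 lowered by IL-1β in iCre fibroblasts (8.76% and 54.4%, beside 33.7% and 26.4% of expressed protein-coding genes), with a median log2 fold change of −0.36, against 29 raised and 113 lowered in LacZ fibroblasts. Their median GC content was 44.1%, and with the GC correction 17 were raised and 151 lowered in iCre fibroblasts, and without the block 13 and 136. With IL-1β against TGFβ in iCre fibroblasts, 105 had a higher and 26 a lower level (31.7% and 7.85%, beside 30.3% and 27.3%). The interaction was negative for 121 and positive for 13 of them (36.6% and 3.93%, beside 17.2% and 14.3%), and with the GC correction for 54 and 9 (16.3% and 2.72%, beside 12.8% and 10.2%).

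All 9 genes of the mitochondrial genome with at least 1 CPM were lowered in iCre fibroblasts, with a median log2 fold change of −0.98, whereas 6 were raised and 1 lowered in LacZ fibroblasts. With the GC correction, 6 were lowered and 1 raised in iCre fibroblasts, and the median GC content of the 9 genes was 35.8%. With IL-1β against TGFβ in iCre fibroblasts, 2 of the 9 had a higher and 0 a lower level (median log2 difference 0.06). The share of counts on the mitochondrial genome was 0.666% to 1.04% in the iCre CTRL and 0.364% to 0.632% in the iCre IL-1β libraries, and lay between 0.302% and 0.549% in the iCre libraries with TGFβ or TNFα. In the LacZ and bFGF groups it lay between 0.582% and 1.17%. The part of RNA quality, library preparation and base composition in these shares was not tested. Of 34 collagen genes, 14 were raised and 7 lowered in iCre fibroblasts (41.2% and 20.6%, beside 33.7% and 26.4% of protein-coding genes with at least 1 CPM). With the GC correction 9 were raised and 12 lowered, and without the block 2 were raised and 2 lowered.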
